A study of Mus musculus with 6 samples.

Results

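MHC antigen presentation was followed through 10 genes in liver RNA of mice after portal vein surgery. They were taken by name, with no cutoff on measured values: 4 of class I (H2-K1, H2-D1, B2m and Tap1) and 6 of class II (H2-Aa, H2-Ab1, H2-Eb1, H2-DMa, Cd74 and Ciita). They were found by the RefSeq accession that each probe carries, and every probe was kept. This gave 12 probes, 5 for class I and 7 for class II, of 55681 probes that were not controls, and 10 of the 13586 named genes with a tested probe. PVBL mice underwent ligation of the left portal vein branch, and their right lobe served as regenerating liver 3 days later. The sham group had a sham operation and was sampled at the same 3 days. All mice were male C57BL/6J with no transgene or deletion named in the labels, and their age was not given in the sources used here. Each group had 3 samples (PVBL 1 to 3 and sham 1 to 3), each on its own single-colour Agilent array.

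The arrays had between 48.0% and 53.6% of probes well above background, and no spot of a member was saturated. All 10 hepatocyte markers examined, albumin (Alb) among them, passed the filter on dim probes. Whether the numbered samples are separate animals is not given in the labels, so the p-values cover only sample-to-sample spread, part of which may be technical. PVBL arrays filled slide row 2 and sham arrays row 1, and row and surgery cannot be told apart. Levels are given as log2 of the processed signal relative to the 75th percentile of the same array, and differences are PVBL minus sham on that scale. Levels of different probes are not compared with each other. A summed level of a list mostly follows its brightest probes and does not stand for an amount of a cell type.

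MHC class I molecules show peptides made inside the cell to CD8+ T cells and are carried by nearly all nucleated cells, hepatocytes included. Their heavy chains, such as those of H2-K1 and H2-D1, pair with beta-2-microglobulin (B2m), after the TAP transporter has moved peptides into the endoplasmic reticulum. Class II molecules show peptides taken up from outside to CD4+ T cells, and in liver they are known mainly from Kupffer cells, dendritic cells, B cells and sinusoidal endothelium. Their alpha and beta chains (H2-Aa with H2-Ab1, H2-Eb1 with an H2-E alpha chain) assemble on the invariant chain Cd74, H2-DM exchanges its remnant for peptide, and the coactivator Ciita switches the class II genes on. C57BL/6 mice are known to make no H2-E alpha chain, so transcripts of H2-Eb1 do not become a surface H2-E molecule in this strain. Lower RNA per cell and fewer cells of a type cannot be told apart in whole-tissue RNA.

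The class II genes share a promoter layout in which an X box, bound by RFX and by CREB-family factors, stands upstream of a Y box bound by NF-Y, whose core reads CCAAT. Class I heavy chain genes are known for an upstream kappa B site. To set class II beside class I, the 200 bases before the start site are shown for 2 class II chain genes and for the 3 class I chain genes, 5′ to 3′ on the gene's own strand, from RefSeq on GRCm38.p6. Capitals mark matches to any of 4 motifs searched on both strands: CCAAT (the Y box core), TGANGTCA, AACNGNTG and a kappa B motif.
H2-Aa (chr17:34287824-34288023, minus strand): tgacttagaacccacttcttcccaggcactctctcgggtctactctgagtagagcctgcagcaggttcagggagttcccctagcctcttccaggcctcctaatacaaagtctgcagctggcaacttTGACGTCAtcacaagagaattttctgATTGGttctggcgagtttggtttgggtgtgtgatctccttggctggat
H2-Eb1 (chr17:34305667-34305866, plus strand): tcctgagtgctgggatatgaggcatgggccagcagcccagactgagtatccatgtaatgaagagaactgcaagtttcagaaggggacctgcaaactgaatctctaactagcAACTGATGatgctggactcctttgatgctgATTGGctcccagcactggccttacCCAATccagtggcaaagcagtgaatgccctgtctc
H2-K1 (chr17:34000348-34000547, minus strand): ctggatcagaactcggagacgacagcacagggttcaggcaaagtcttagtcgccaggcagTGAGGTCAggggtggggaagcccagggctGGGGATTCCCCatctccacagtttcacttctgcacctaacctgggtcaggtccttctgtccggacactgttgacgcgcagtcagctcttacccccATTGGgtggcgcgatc
H2-D1 (chr17:35262894-35263093, plus strand): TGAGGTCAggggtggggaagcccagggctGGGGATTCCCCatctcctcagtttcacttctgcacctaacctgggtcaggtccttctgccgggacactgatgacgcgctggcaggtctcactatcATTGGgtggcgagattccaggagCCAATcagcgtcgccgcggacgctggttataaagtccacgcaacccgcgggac
B2m (chr2:122147487-122147686, plus strand): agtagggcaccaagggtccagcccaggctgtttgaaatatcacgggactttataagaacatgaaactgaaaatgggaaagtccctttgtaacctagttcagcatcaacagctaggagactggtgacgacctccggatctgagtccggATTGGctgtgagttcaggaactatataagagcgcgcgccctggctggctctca

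Of the 9 starts in the table, those of Tap1 and the first of H2-DMa held none of the motifs, and the second of H2-DMa held only ATTGG, 198 bases before it. All 5 stretches shown held CCAAT or its reverse, as did 29.3% of the 32851 promoters in the table over the same 200 bases. H2-Aa had ATTGG 48 bases and TGACGTCA 74 bases before the start. H2-Eb1 had ATTGG 59 bases, CCAAT 35 bases and AACTGATG 89 bases before it. The kappa B letters GGGGATTCCCC were found 111 bases before the start of H2-K1 and 171 bases before that of H2-D1, both downstream of a TGAGGTCA, and the kappa B motif occurred in 0.222% of all promoters. TGANGTCA occurred in 6.62% and AACNGNTG in 7.04%. The TGAGGTCA lay 140 bases before the start of H2-K1 and 200 bases before that of H2-D1. ATTGG lay downstream of it, 16 and 76 bases before these starts, the same order as in H2-Aa. That order of letters was therefore not particular to class II. No match in these stretches overlapped another of a different motif. The table held start sites for 7 of the 10 members (9 starts), and a match describes letters only. By RefSeq order on chromosome 17, 7 of the members follow each other as H2-K1, H2-DMa, Tap1, H2-Ab1, H2-Aa, H2-Eb1 and H2-D1, so the class I gene Tap1 lies among the class II genes.

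Of the class II transcripts Cd74 fell in PVBL, the chain genes H2-Aa, H2-Ab1 and H2-Eb1 had differences from -1.30 to -1.24 that missed the threshold, and the groups overlapped for H2-DMa. Without PVBL 2 the differences of Cd74 and the chain genes were from -0.88 to -0.75. Class I differences lay close to that of the bulk of all probes. The median log2 difference was -1.25 over the 7 class II probes and -0.22 over the 5 class I probes, against -0.19 over all 27918 probes tested. All 12 member probes were well above background on all 6 arrays and entered the test. After limma with Benjamini-Hochberg adjustment over all probes, 1 of 7 class II probes (Cd74) and 1 of 5 class I probes (1 of the probes of H2-K1) passed the adjusted p threshold of 0.05, both lower in PVBL. Over all probes tested 30.5% passed, 19.2% lower and 11.3% higher in PVBL, and the share called in each class was no larger than that overall share. On 6 of 7 class II and 2 of 5 class I probes every PVBL array lay below every sham array, which was the case for 33.0% of all probes tested.

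**Figure D1:**
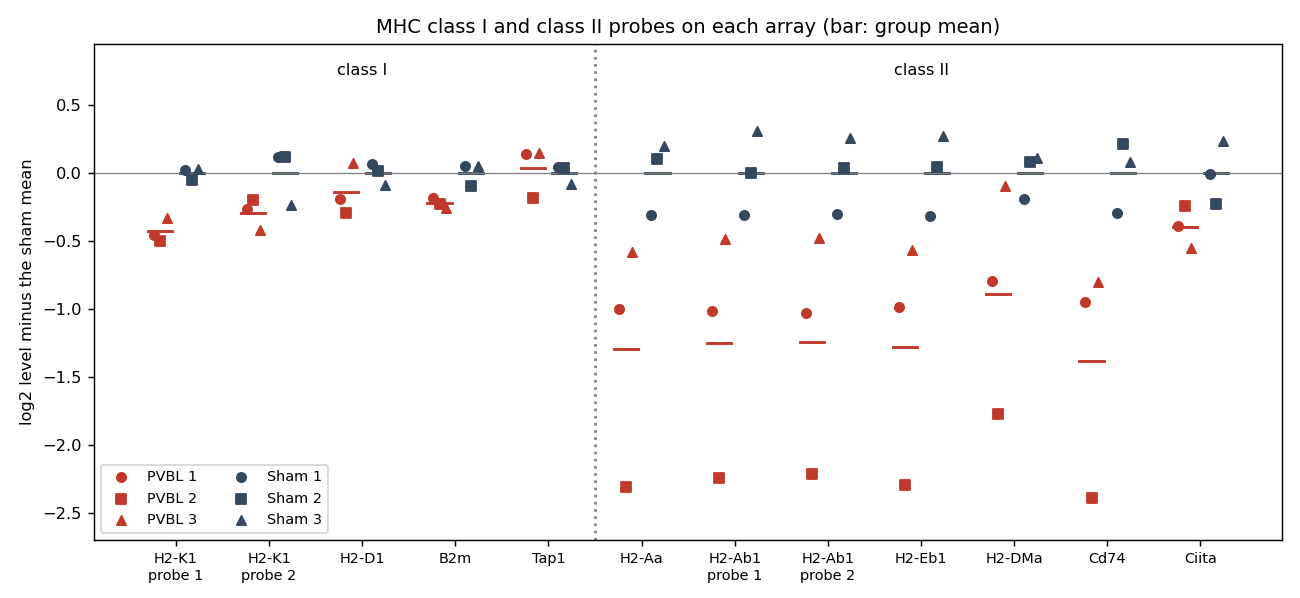
Log2 level of each member probe on each array, minus that probe's sham mean (vertical axis), with PVBL arrays left of sham arrays for each gene and bars at the group means. On 6 of the 7 class II probes the square of PVBL 2 lies lowest, more than 1.7 below the sham mean, while class I probes stay within 0.5 of it.

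Cd74 encodes the invariant chain, the chaperone on which class II chains assemble. Its log2 level was 2.55, 1.11 and 2.69 on PVBL 1, 2 and 3, against 3.21, 3.71 and 3.58 on sham 1, 2 and 3. The groups did not overlap, PVBL 2 was far below the other PVBL arrays, and in units of processed signal PVBL 2 read 713 where PVBL 1 and 3 read 2378 and 2204 and the sham arrays 2904, 3951 and 2429. Cd74 fell by 1.38 ± 0.41 (SE, n = 3 per group; 2.61-fold lower; limma, adjusted p = 0.0416). Without PVBL 2 it fell by 0.88 ± 0.19 (adjusted p = 0.0253). The call was lost without PVBL 1 or any 1 sham array (adjusted p from 0.0527 to 0.113). It was also lost with quantile (0.0623), median (0.0696) and spike-in scaling (0.131), without a filter on dim probes (0.121) and with the replicate block (0.0518). Over all 17 alternatives adjusted p ranged from 0.0120 to 0.131. The lowest came from the deposited value table, where 7649 of 7849 tested probes passed, so a pass there says little.

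H2-Aa, the alpha chain gene of the H2-A molecule, had log2 levels of -0.17, -1.48 and 0.26 on PVBL 1, 2 and 3, against 0.53, 0.94 and 1.04 on sham 1, 2 and 3. Here too all PVBL arrays lay below all sham arrays, with PVBL 3 closest to them. The difference was -1.30 ± 0.42 (limma, adjusted p = 0.0542) and missed the threshold narrowly. Without PVBL 2 it was -0.79 ± 0.22 and passed (adjusted p = 0.0455, within 0.0109 to 0.187 over the 16 alternatives that held it).

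H2-Ab1, the beta chain gene of the same molecule, was measured by 2 probes that gave nearly the same result. Probe 1 had log2 levels of 4.15, 2.92 and 4.68 on PVBL 1, 2 and 3, against 4.86, 5.16 and 5.48 on sham 1, 2 and 3, and a difference of -1.25 ± 0.43 (limma, adjusted p = 0.0624). Probe 2 had 3.85, 2.67 and 4.41 on the PVBL arrays, against 4.58, 4.92 and 5.14 on the sham arrays, and a difference of -1.24 ± 0.42 (adjusted p = 0.0597). Neither passed, and in both the groups did not overlap, with PVBL 2 lowest and PVBL 3 highest among the PVBL arrays.

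H2-Eb1, the beta chain gene of H2-E, had log2 levels of 3.04, 1.73 and 3.46 on PVBL 1, 2 and 3, against 3.72, 4.07 and 4.30 on sham 1, 2 and 3. The order of the arrays was that of H2-Aa and H2-Ab1, and the difference of -1.28 ± 0.42 did not pass (limma, adjusted p = 0.0572). H2-DMa, a chain of the peptide exchange factor H2-DM, had levels of -1.45, -2.43 and -0.75 on PVBL 1, 2 and 3, against -0.85, -0.58 and -0.55 on sham 1, 2 and 3. PVBL 3 lay above sham 1, so the groups overlapped, and the difference was -0.89 ± 0.39 (adjusted p = 0.119; 95% interval -1.80 to 0.023).

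Ciita, the class II coactivator, gave a weak signal, at 27.7 to 37.0 units on the PVBL arrays and 28.6 to 37.4 units on the sham arrays. The lowest signals that counted as well above background were 11.9 to 23.8 units. Its log2 levels were -3.46, -3.31 and -3.62 on PVBL 1, 2 and 3, against -3.07, -3.29 and -2.83 on sham 1, 2 and 3. PVBL 2, lowest for the other class II genes, was the highest PVBL array for Ciita and lay just under sham 2. The difference was -0.39 ± 0.16 and did not pass (limma, adjusted p = 0.106; 95% interval -0.78 to -0.0080), and with spike-in scaling it was 0.034.

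The 5 probes of H2-Aa, H2-Ab1, H2-Eb1 and Cd74 followed each other closely. Over the 6 arrays their levels correlated pairwise with r from 0.978 to 0.999 (10 pairs), and after the group means were taken out with r of at least 0.951; the probes share arrays and RNA, and these values are descriptions. Their differences ranged only from -1.38 to -1.24. PVBL 2 minus the mean of PVBL 1 and PVBL 3 was -1.52 to -1.46 on these 5 probes and -1.33 on H2-DMa, a gap that 0.463% to 0.864% of all probes tested matched or exceeded downward. The SD over the PVBL arrays was 0.85 to 0.90 on these 6 probes, against 0.16 to 0.31 over the sham arrays, and the medians over all probes tested were 0.22 in PVBL and 0.16 in sham. For Ciita PVBL 2 was 0.23 above the mean of the other PVBL arrays. Of the class I probes, probe 1 of H2-K1 correlated with H2-Aa at r = 0.855 over the arrays (0.694 after the group means were taken out), H2-D1 at 0.755 (0.667), Tap1 at 0.404 (0.814), B2m at 0.651 (-0.14) and probe 2 of H2-K1 at 0.321 (-0.56), while Ciita had 0.407 (-0.46).

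Among class I genes the heavy chain gene H2-K1 had 2 probes. Probe 1, printed in 10 spots per array, had log2 levels of 8.37, 8.33 and 8.50 on PVBL 1, 2 and 3, against 8.85, 8.78 and 8.86 on sham 1, 2 and 3. The groups did not overlap and their spread was small, and H2-K1 fell by 0.43 ± 0.12 on this probe (1.34-fold lower; limma, adjusted p = 0.0355). Probe 2 had 7.14, 7.20 and 6.98 on the PVBL arrays, against 7.52, 7.52 and 7.17 on the sham arrays. PVBL 2 lay above sham 3 there, and the difference of -0.29 ± 0.15 did not pass (adjusted p = 0.173). The call on probe 1 was lost when any 1 array other than PVBL 3 was left out (adjusted p from 0.0687 to 0.117, within 0.00308 to 0.999 over all 17 alternatives), and the difference was 0.0017 with spike-in scaling.

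H2-D1, the other classical heavy chain gene of this strain, had log2 levels of 7.34, 7.24 and 7.61 on PVBL 1, 2 and 3, against 7.60, 7.55 and 7.45 on sham 1, 2 and 3. PVBL 3 was the highest of all 6 arrays, and the difference was -0.14 ± 0.14 (limma, adjusted p = 0.483; 95% interval -0.47 to 0.20; above 0 with quantile and spike-in scaling). Probes for H2-K1 and H2-D1 may meet each other's transcripts or those of the H2-Q genes, whose sequences are nearly the same, so the split between these genes is uncertain. B2m, the light chain of every class I molecule, had levels of 8.38, 8.34 and 8.31 on PVBL 1, 2 and 3, against 8.62, 8.47 and 8.62 on sham 1, 2 and 3. No PVBL array reached a sham array, but the difference of -0.22 ± 0.12 missed the threshold (adjusted p = 0.188) and was above 0 with quantile and spike-in scaling.

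Tap1, a subunit of the peptide transporter, had log2 levels of -0.34, -0.66 and -0.33 on PVBL 1, 2 and 3, against -0.44, -0.44 and -0.56 on sham 1, 2 and 3. The groups overlapped fully, with PVBL 2 the lowest and PVBL 3 the highest array. The difference was 0.035 ± 0.14 (limma, adjusted p = 0.864), and its 95% interval of -0.30 to 0.37 does not reach the differences seen for Cd74 or H2-Aa.

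**Figure D2:**
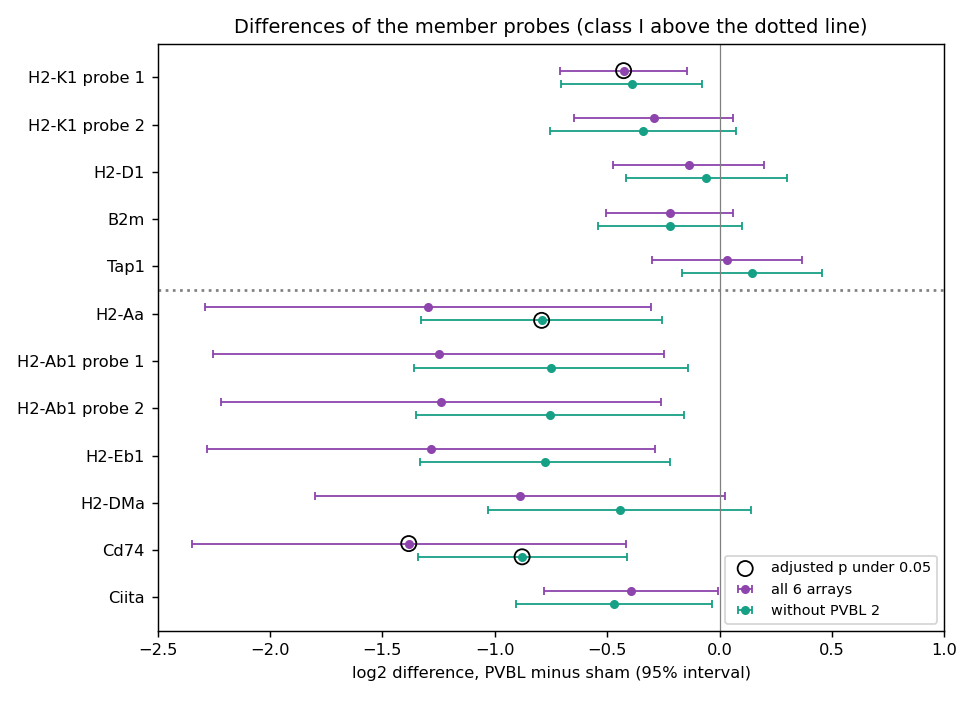
Log2 difference between PVBL and sham for each member probe (horizontal axis), with 95% intervals from limma, over all 6 arrays and without PVBL 2; circles mark adjusted p under 0.05. Class II intervals over all arrays reach from about -2.3 to 0.02, and without PVBL 2 they are narrower (save for Ciita) and their centres lie between -0.88 and -0.44, while class I centres lie between -0.43 and 0.14 in both.

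Set against each other array by array, the classes parted most on PVBL 2. The mean of the class II probes, each taken relative to its sham mean, was -0.88 on PVBL 1, -1.93 on PVBL 2 and -0.51 on PVBL 3, and that of the class I probes -0.19, -0.28 and -0.16. Class II minus class I was -0.69, -1.65 and -0.35 on PVBL 1, 2 and 3, against -0.30, 0.031 and 0.27 on sham 1, 2 and 3. PVBL 3 and sham 1 were close to each other by this measure. Without PVBL 2 the class II median was -0.75 and the class I median -0.22.

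The genes whose level was most like that of H2-Aa over the 6 arrays were H2-Eb1 (r = 0.999), H2-Ab1 (0.996), Krtap10-4 (0.994), Adnp2 (0.994) and Rab3c (0.993), of 12562 genes above background on all arrays. Cd74 came seventh (0.992) and H2-DMa twentieth (0.979). For H2-K1 the nearest were Mbtd1 (1.000), Hbp1 (0.998), Pikfyve (0.997), Hs3st1 (0.997) and Lmbr1l (0.996). B2m had r = 0.892 with H2-K1, H2-D1 0.657 and Tap1 -0.011.

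Among 34 other class I pathway genes, 28 were on the arrays, all were tested, and 2 rose and 2 fell, with a median log2 difference of -0.14 (1 probe per gene, the brightest; over all 13586 named genes 31.2% passed, 14.4% higher and 16.8% lower). H2-Q1 rose by 1.91 ± 0.38 (limma, adjusted p = 0.0112) and H2-Q8 by 1.11 ± 0.20 (adjusted p = 0.00748), both nonclassical class I genes of the Q region with near-identical neighbours. Cd1d1, which shows lipids to NKT cells, fell by 0.99 ± 0.14 (adjusted p = 0.00352), and H2-T24 by 0.98 ± 0.26 (adjusted p = 0.0300). The second peptide transporter subunit Tap2 (-0.067), the immunoproteasome subunits Psmb8 (-0.27) and Psmb9 (-0.21), the loading factor Tapbp (-0.052) and Nlrc5 (-0.64; -0.03 on its other probe), the class I coactivator, did not pass. With spike-in scaling 2 genes of this list passed.

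Of 22 other class II pathway genes 21 were on the arrays and 18 were tested, and 3 rose and 2 fell, with a median of -0.18. H2-DMb1, the partner of H2-DMa, had log2 levels of 0.66, -0.10 and 1.45 on PVBL 1, 2 and 3, against 1.42, 1.63 and 1.85 on sham 1, 2 and 3, again lowest on PVBL 2, with a difference of -0.96 ± 0.36 that did not pass (limma, adjusted p = 0.0841). Ifi30, a thiol reductase that opens disulfide bonds of antigens in endosomes, went the other way and rose by 1.05 ± 0.26 (adjusted p = 0.0232). Among genes of factors bound at class II promoters, Creb1 and Nfya rose by 0.84 ± 0.21 and 0.64 ± 0.14 (adjusted p = 0.0243 and 0.0155), while Rfxank, an RFX subunit, fell by 0.65 ± 0.17 (adjusted p = 0.0262). Marchf8, a ligase that removes class II from the surface, fell by 0.45 ± 0.13 (adjusted p = 0.0396). Ctss, the protease that trims the invariant chain, was at 3.09, 2.66 and 4.46 on the PVBL arrays, against 3.88, 3.72 and 3.76 on the sham arrays, highest on PVBL 3.

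Interferon gamma is the known inducer of Ciita and of both classes, and Ifng itself was too dim to be tested. Of 25 tested genes of interferon and its signalling 8 fell and none rose, with a median of -0.35. Over all named genes 31.2% passed, 16.8% lower and 14.4% higher in PVBL. Irf2 fell by 0.90 ± 0.16 (limma, adjusted p = 0.00755), Ifit3 by 0.87 ± 0.22 (adjusted p = 0.0240), Ifit1 by 0.82 ± 0.16 (adjusted p = 0.0105) and Iigp1 by 0.70 ± 0.14 (adjusted p = 0.0128). Irf1, a transcription factor induced by interferon gamma, had a difference of -0.21 (adjusted p = 0.407). With spike-in scaling none of the 25 passed after adjustment.

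In the main setting markers of cells that carry class II did not move as one block, and their counts depended on PVBL 3. The counts for these and the further marker lists stand beside 16.8% of all named genes passing lower and 14.4% higher in PVBL. Of 11 tested macrophage and monocyte markers, 1 rose (Marco, a scavenger receptor, by 2.52 ± 0.38; limma, adjusted p = 0.00449) and none fell on the brightest probe of each gene. Itgam had 2 other probes, with a mean difference of -0.46, and 1 of them passed (limma, adjusted p = 0.0148). Without PVBL 3, 6 of the 11 markers passed lower and 1 higher. Their mean, each gene centred on its 6 arrays, was -0.36, -0.46 and 1.04 on PVBL 1, 2 and 3, against -0.073, -0.18 and 0.029 on sham 1, 2 and 3, and their summed level relative to the 75th percentile ranged from 117 to 293 in PVBL and from 152 to 171 in sham. PVBL 3 was highest by both measures. The 6 pan-leukocyte markers had centred means with PVBL 3 highest too (-0.41, -0.62 and 0.86 in PVBL, 0.017, 0.092 and 0.058 in sham), and none of them passed. Tyrobp was at 2.62, 2.30 and 3.92 in PVBL, against 3.37, 3.35 and 3.29 in sham. Of the 11 macrophage and monocyte markers 6 were lower and 5 higher on PVBL 2 than on PVBL 1. The counts lower and higher were 5 and 1 for the pan-leukocyte markers, 5 and 1 for the class II members and 4 and 0 for the class I members. They were 9 and 2 for stellate cell and biliary markers, 5 and 3 for T and NK cell markers and 4 and 3 for dendritic cell markers. Interferon genes had 14 and 11 and other class II pathway genes 10 and 8. More were higher among B cell (3 and 4), sinusoidal endothelial (4 and 6) and hepatocyte markers (3 and 7) and other class I pathway genes (7 and 21). The share of all probes lower on PVBL 2 than on PVBL 1 was not computed, so a low PVBL 2 is not shown to be particular to any list. The Kupffer cell marker Clec4f was at 3.83, 3.78 and 5.12 in PVBL, against 4.84, 4.70 and 4.90 in sham, and the monocyte marker Cx3cr1 at -0.998, -2.99 and 0.26 in PVBL, against -2.38, -2.33 and -1.99 in sham. Others of the list differed. Ccr2 was at -3.51, -3.56 and -1.03 in PVBL, against -3.55, -3.70 and -3.20 in sham. Timd4 was at -1.32, -0.88 and -0.26 in PVBL, against -0.74, -0.78 and -1.06 in sham.

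Of 7 tested dendritic cell markers 1 fell (Ccr7, by 0.82 ± 0.22; limma, adjusted p = 0.0295), and their centred mean was -0.32, -0.40 and 0.32 on PVBL 1, 2 and 3, against 0.022, 0.099 and 0.28 on sham 1, 2 and 3. Without PVBL 3, 3 of the 7 passed lower. Xcr1 did not exceed background on the 6 arrays. Flt3 (-3.57, -4.17 and -2.77 in PVBL, against -3.07, -2.89 and -2.69 in sham) and Itgax (-1.90, -3.38 and -0.84, against -2.45, -2.34 and -2.20) were lowest on PVBL 2, where Flt3 was not well above background. Clec9a (-2.96, -1.59 and -2.48 in PVBL, against -2.56, -2.36 and -1.95 in sham) and Zbtb46 (-2.19, -1.74 and -1.89, against -1.68, -1.74 and -1.48) were highest on PVBL 2 among the PVBL arrays, and Batf3 was at -1.59, -1.52 and -0.41 in PVBL, against -1.02, -0.94 and -1.15 in sham. The summed level of the list ranged from 82.0 to 102 in PVBL and from 95.5 to 109 in sham. Nearly all of that sum came from 1 bright gene, Siglech (6.41, 6.33 and 6.64 in PVBL, against 6.55, 6.74 and 6.73 in sham). None of 7 tested B cell markers passed, and their centred mean was -0.42, 0.090 and 0.013 on PVBL 1, 2 and 3, against 0.10, 0.044 and 0.17 on sham 1, 2 and 3, so that PVBL 2 was not low. Among them were Cd79b (difference -0.22 ± 0.24, adjusted p = 0.512) and Cr2 (0.042 ± 0.14, adjusted p = 0.832). The summed level of the B cell list ranged from 1.35 to 1.85 in PVBL and from 1.66 to 2.04 in sham, and Blk was above background nowhere.

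Of 10 sinusoidal endothelial markers 4 fell and none rose on the brightest probe of each gene, where 16.8% of all named genes passed lower and 14.4% higher. Kdr did not pass on that probe, while its other probe had -1.18 and passed (limma, adjusted p = 0.0146). With spike-in scaling none of the 10 passed, and with array weights 9 passed lower. Clec4g fell by 1.49 ± 0.29 (limma, adjusted p = 0.0104) and Oit3 by 1.24 ± 0.32 (adjusted p = 0.0259). The centred mean of the 10 markers was -0.73, -0.57 and 0.19 on PVBL 1, 2 and 3, against 0.24, 0.43 and 0.44 on sham 1, 2 and 3. Their summed level ranged from 57.0 to 89.8 in PVBL and from 128 to 137 in sham. Of 8 tested T and NK cell markers 3 fell, Cd3d by 0.99 ± 0.19 (adjusted p = 0.0104), Cd3g by 0.70 ± 0.21 (adjusted p = 0.0399) and Cd8a, which was at least 1.63-fold lower (adjusted p = 0.0181). Cd8a entered the test through the sham arrays alone, being above background on no PVBL array, and 2 of the list passed with the filter of all 6 arrays. The centred mean of this list was -0.28, -0.45 and -0.22 on PVBL 1, 2 and 3, against 0.33, 0.32 and 0.30 on sham 1, 2 and 3, and Ncr1 was above background on no array. Its summed level ranged from 40.8 to 75.7 in PVBL and from 65.7 to 85.7 in sham. Most of that sum came from the bright Cd4 probe (6.02, 6.00 and 4.96 in PVBL, against 6.16, 6.13 and 5.72 in sham). Of 11 tested stellate cell and biliary markers 5 rose, Spp1 by 2.46 ± 0.51 most, and 1 fell. Of these 5, Krt7 entered the test through the PVBL arrays alone, being above background on 2 sham arrays. With the filter of all 6 arrays 10 of this list were tested, and 4 rose and 1 fell. Of the hepatocyte markers 2 fell (Ass1 by 0.76 ± 0.17 and Fgb by 0.53 ± 0.12; adjusted p = 0.0160 and 0.0181). The part of these cell types in the class II differences was not tested.

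**Figure D3:**
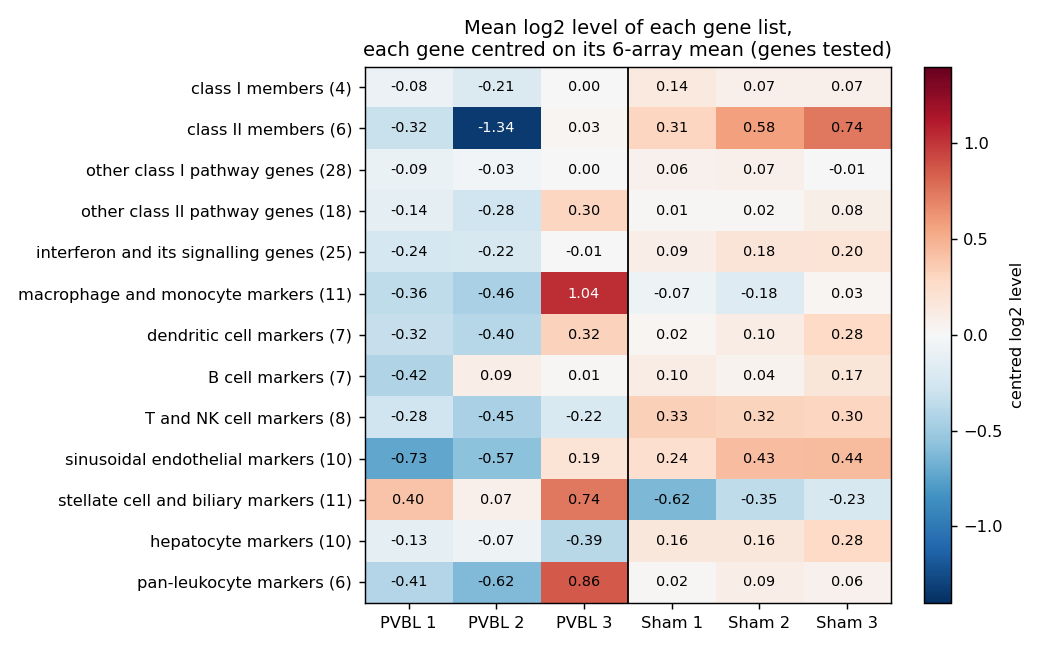
Mean log2 level of each gene list on each array (columns, PVBL left of sham), each gene centred on its mean over the 6 arrays, with the number of genes tested in brackets. Class II members reach -1.34 on PVBL 2, macrophage and pan-leukocyte markers reach 1.04 and 0.86 on PVBL 3, and class I members stay between -0.21 and 0.14.

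Both sizes and calls moved when the processing was changed. Over 17 other settings Cd74 lay between -1.67 and -0.88 and H2-Aa, in the 16 that held it, between -1.66 and -0.79, all below 0. Probe 1 of H2-K1 lay between -0.48 and 0.0017 and B2m between -0.27 and 0.21. With normexp background correction 5 of the 7 class II probes passed, with adjusted p from 0.0236 to 0.0421, and no class I probe did. With array weights 7 class II and 2 class I probes passed. No probe of either class passed with quantile, median or spike-in scaling or without a filter on dim probes.

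**Figure D4:**
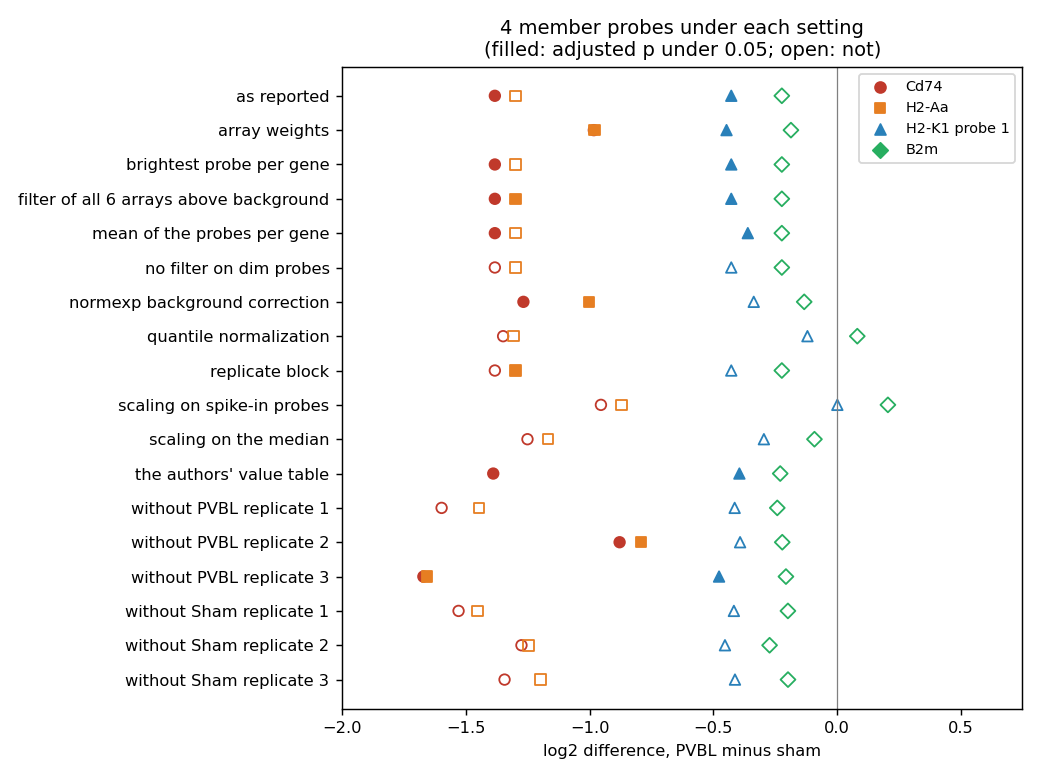
Log2 difference between PVBL and sham (horizontal axis) for Cd74, H2-Aa, probe 1 of H2-K1 and B2m under each processing setting (rows), filled where adjusted p was under 0.05. Cd74 and H2-Aa stay at or below -0.79 in every setting shown, and H2-K1 and B2m stay between -0.48 and 0.21.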

How the data were processed

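Liver total RNA was column-purified and Cy3-labelled, per the labels' protocols, with 1 array per sample. The deposited scanner files hold an intensity per spot, from design 028005 (build mm9) read with Feature Extraction 10.7.3.1, per the file headers; the submitters' processing notes name version 9.1. The deposited value table holds log2 values centred per probe, with no normalization given in the sources used here. It matched the centred values used here (r of at least 0.9997 on each array), held 7850 rows, and was used only as an alternative; the medians of its PVBL columns were -0.18, -0.15 and -0.22, and those of its sham columns 0.17, 0.15 and 0.18.

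After removal of 3671 control spots and of outlier spots (115 to 201 on an array), spots of 1 probe were combined as mean log2 processed signal, relative to the 75th percentile of that array. The 75th percentile was 331 to 407 units in PVBL and 203 to 315 in sham, and the number of arrays limits the precision. Probes that exceeded background throughout the PVBL or the sham arrays (27918 of 55681) were tested with limma 3.58.1 in R 4.3.3 (lmFit, eBayes, two-sided), adjusted over all of them with a threshold of 0.05, after a check on simulated data. Symbols came from RefSeq accessions (GRCm38.p6, 26413 probes named), without coordinates from that table. The members and lists were chosen with earlier results of these data known. Named were all members, up to 4 called genes per further list, those of largest change (or, with none called, its 2 brightest), and the 5 genes most correlated with H2-K1 and H2-Aa. Rfx5, H2-Eb2, H2-DMb2 and Ifng did not pass the filter. Marchf8 and some uncalled pathway genes and markers were named after their values were seen. Normexp used the median signals, since the files hold no mean signal. Alternatives covered background, scaling, filter, weights, probe summary, pairing, the value table and leaving out each array.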

Additional observations from a re-analysis of the deposited data

How the results depend on the processing

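Of the 17 alternatives, the count of all probes called, 8516 in the main setting, was 15746 with array weights, 4475 with the brightest and 4546 with the mean probe per gene, 3621 without a filter on dim probes, 2918 with spike-in scaling (2490 higher, 428 lower) and 4159 to 8499 with 1 array left out. The split of 3143 higher and 5373 lower became 3992 and 3289 with scaling on the median and 3592 and 4670 with quantile normalization. The median over all probes was -0.19, and 0.24 with spike-in scaling. Class II probes called, 1 of 7, were 7 with array weights, 5 with normexp, 4 with the replicate block, 3 with a filter of all 6 arrays, 0 without a filter and with quantile, median or spike-in scaling, and 0 to 6 with 1 array left out: 0 without PVBL 1 or any 1 sham array, 2 without PVBL 2 and 6 without PVBL 3. Class I probes called, 1 of 5, were 2 with array weights, 0 with normexp, the replicate block, no filter and quantile, median or spike-in scaling, and 0 to 1 with 1 array left out (0 without any 1 array but PVBL 3). The class I median of -0.22 was 0.038 with quantile, -0.091 with median and 0.21 with spike-in scaling; the class II median stayed below 0 throughout (-1.63 to -0.75). Signs turned for B2m (0.082 with quantile, 0.21 with spike-in scaling), H2-D1 (0.11 and 0.29), and with spike-in scaling for H2-K1 (0.0017 and 0.14 in its probes) and Ciita (0.034). Tap1 turned to -0.022 with normexp, -0.018 without PVBL 1, -0.022 without PVBL 3 and -0.0050 without sham 3. The cause was not tested. Of 191 member values under alternatives, 138 kept direction and side of the threshold. Calls ranged from 2 to 13 in the class I list (4 in the main setting), from 0 to 11 in the class II list (5) and from 0 to 14 among interferon genes (8). Among marker lists they ranged from 1 to 7 for macrophages and monocytes (1), 0 to 4 for dendritic cells (1) and 0 to 4 for pan-leukocyte markers (0). They ranged from 0 to 9 for sinusoidal endothelium (4), 0 to 3 for B cells (0) and 1 to 6 for T and NK cells (3). The ranges were 3 to 9 for stellate cell and biliary markers (6) and 0 to 6 for hepatocyte markers (2). The value table held only Cd74, B2m and 1 probe of H2-K1, and 7649 of its 7849 tested probes passed.

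Deviations of same-numbered arrays from their group means correlated at 0.20, -0.039 and 0.23. PVBL 1 and PVBL 3 each correlated best with the sham array of the same number, and PVBL 2 with sham 1 (0.11). With 3 arrays per group these values cannot decide whether the replicate numbers pair the samples. With the replicate block 7380 probes were called, among them probes of H2-Aa, H2-Ab1 and H2-Eb1, and not Cd74 (adjusted p = 0.0518). Probes near background, such as that of Ciita, limit what its small difference can show.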
